A study of Homo sapiens and Canis lupus familiaris with 27 samples.

Results

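The 40 ATF4 amino acid stress genes were followed through PDA-66 exposure of 3 prostate carcinoma cell lines. They were chosen by name and function: ATF4 and its partners and targets, the enzymes of serine, one-carbon, asparagine and cysteine synthesis, the amino acid transporters and the tRNA synthetases. The rule itself uses no measured value, but the members were chosen with earlier results of these data known. All 40 are among the 23708 genes counted in PC-3 and in LNCaP, and 38 are among the 16028 genes counted in CT1258, where PHGDH and MTHFD2 are not listed. After a filter on low counts, 40 members of 13777 genes were tested in PC-3, 39 of 13156 in LNCaP and 36 of 9886 in CT1258. ALDH1L2 failed the filter in LNCaP with at most 0.247 CPM (counts scaled to a common library size), and VLDLR and STC2 had 0 counts in all 9 CT1258 samples.

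PC-3 is a human line from a bone marrow metastasis, LNCaP a human line from a lymph node metastasis and CT1258 (TihoDProAdcarc1258) a canine prostate adenocarcinoma line. Each line was exposed to 15 µM PDA-66, an indolylmaleimide that acts on microtubules, for 12 h or 24 h, and the controls received the solvent, 0.15% DMSO, for 24 h. Poly(A) RNA was sequenced in 3 samples per group, but 1 PC-3 control was excluded by the study, which leaves 2. All controls analysed here are at 24 h, so at 12 h exposure and culture time cannot be told apart, and both PDA-66 groups of a line are compared with the same controls. Each line grew in its own medium. The study's methods describe the samples of a group as biological replicates prepared independently.

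ATF4 is the transcription factor of the integrated stress response. When amino acids run short, uncharged tRNA activates the kinase GCN2, which phosphorylates the initiation factor eIF2. Misfolded protein in the endoplasmic reticulum acts on eIF2 through the kinase PERK. Most translation then slows while ATF4 mRNA is translated more, so ATF4 protein is set largely by translation, which mRNA counts do not show. ATF4 pairs with C/EBP proteins on C/EBP-ATF response elements and switches on genes that import amino acids, make them and load them on tRNA. Prolonged activity raises DDIT3 (CHOP), TRIB3 and CHAC1, which are linked to cell death.

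The promoters show where such a factor could meet these genes. RefSeq promoters of GRCh38.p14, from 250 bases before to 50 bases after a transcript start, matched 34 of the 40 members in 55 windows. The core of the C/EBP-ATF element, TGATGNAA with N as any base, was searched on both strands. It was in 23.6% of the 55 member windows and in 3.62% of all 35116 windows, and at least 1 window of 13 members held it. A match is a description of the letters and not a binding site. The members holding it were ATF3, CEBPG, CHAC1, ASNS, SLC3A2, SLC1A4, SLC1A5, AARS, GARS, MARS, NARS, IARS and CARS. ATF3, CHAC1 and ASNS are printed because their values are given sample by sample, with the motif in capitals. Of 2 ATF3 windows 1 held the motif, chr1:212565157-212565456 on the plus strand, 191 bases before that start. The CHAC1 window is chr15:40953221-40953520 on the plus strand with the motif on the reverse strand 209 bases before the start. Of 2 ASNS windows 1 held the motif, chr7:97872359-97872658 on the minus strand, 68 bases before that start.
ATF3: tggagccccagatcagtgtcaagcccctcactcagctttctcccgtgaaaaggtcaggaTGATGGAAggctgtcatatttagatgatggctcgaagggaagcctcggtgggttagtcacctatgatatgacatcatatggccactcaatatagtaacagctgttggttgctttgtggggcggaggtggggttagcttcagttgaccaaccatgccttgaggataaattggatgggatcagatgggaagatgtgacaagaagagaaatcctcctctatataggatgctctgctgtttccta
CHAC1: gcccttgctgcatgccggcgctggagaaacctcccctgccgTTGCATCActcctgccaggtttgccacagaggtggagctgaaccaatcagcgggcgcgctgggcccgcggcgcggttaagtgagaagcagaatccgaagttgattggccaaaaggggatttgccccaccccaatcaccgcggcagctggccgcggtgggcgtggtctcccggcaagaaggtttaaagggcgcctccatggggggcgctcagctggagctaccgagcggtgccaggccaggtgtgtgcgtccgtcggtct
ASNS: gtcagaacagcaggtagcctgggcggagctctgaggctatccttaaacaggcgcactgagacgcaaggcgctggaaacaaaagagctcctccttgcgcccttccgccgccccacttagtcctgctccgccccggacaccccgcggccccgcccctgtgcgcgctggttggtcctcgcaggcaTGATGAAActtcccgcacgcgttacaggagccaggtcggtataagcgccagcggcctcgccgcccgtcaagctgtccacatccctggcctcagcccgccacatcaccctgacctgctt

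Total counts per sample were 14650839 to 18091755 in PC-3 and 11923105 to 14741883 in LNCaP. In CT1258 they were 19909616 to 20976950 in the controls and 7203534 to 8325867 under PDA-66, so depth and treatment go together there. With the CT1258 controls thinned to the PDA-66 depth, all 58 member calls against DMSO kept their call. Replicates varied most in LNCaP, with a common biological coefficient of variation of 0.240, against 0.0971 for PC-3 and 0.100 for CT1258. In PC-3 the 5 epithelial markers summed to 987 to 1088 CPM in DMSO, 658 to 727 CPM at 12 h and 680 to 908 CPM at 24 h, with KRT8 at 128 to 196, EPCAM at 5.34 to 12.6 and CDH1 at 0.979 to 8.37 CPM. In CT1258 EPCAM, an epithelial surface protein, was at most 0.262 CPM and the other 4 epithelial markers checked were not listed. The epithelial label could therefore not be checked there. Of the fibroblast genes listed, LUM, a matrix gene, was at 262 to 429 CPM and COL1A2 at 10.7 to 89.3 CPM. COL1A1 was at most 0.133 CPM and COL3A1 at most 0.298 CPM. In bulk RNA, fewer cells of a type and less RNA per cell cannot be told apart.

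The members' level differed among samples of the same group, most of all among the LNCaP controls. Each member was set against its mean over the samples of the line on the log2(CPM + 0.5) scale, and the median over members was taken for each sample. In LNCaP this median was -0.19, 0.71 and 1.02 in DMSO replicates 1, 2 and 3, then -0.26, 0.22 and -0.16 in the 12 h samples and -0.42, -0.43 and -0.43 in the 24 h samples. DMSO replicate 1 was therefore at the level of the exposed samples, and it was the lowest of the 3 controls for 39 of 39 members, against 36.8% of all genes. DMSO replicate 3 was the highest for 35 of 39, against 27.9% of all genes. The median SD over the LNCaP controls was 0.580 for members and 0.207 for all genes on the log2 scale. At 12 h, LNCaP replicate 2 stood apart from the other two.

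**Figure D1:**
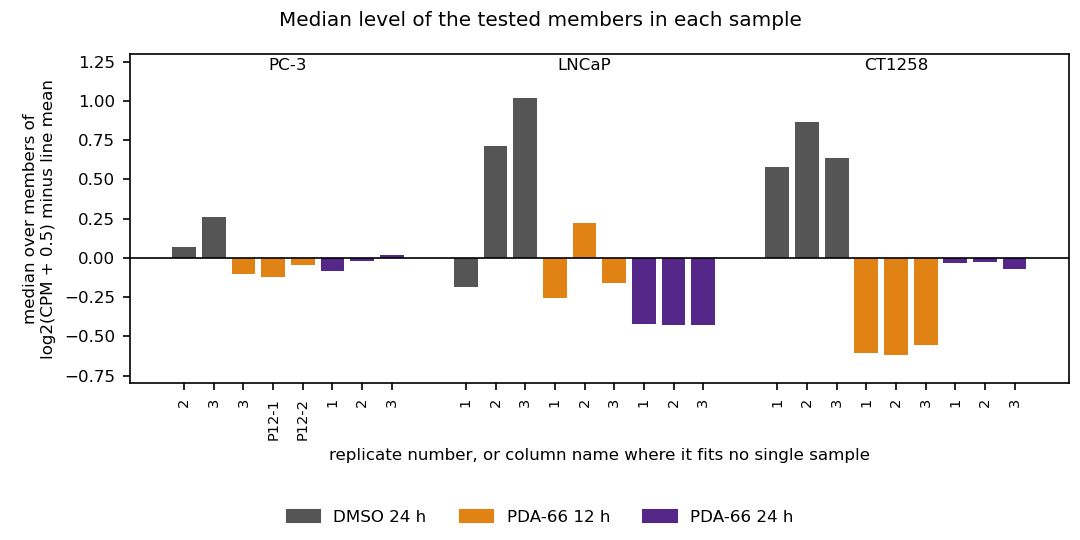
Median over the tested members of log2(CPM + 0.5) minus the line mean (y axis) for each sample (x axis, replicate number or column name) of the 3 lines. The LNCaP controls spread from -0.19 to 1.02, whereas the 3 CT1258 controls, at 0.58 to 0.86, all sit above the CT1258 samples under PDA-66.

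In PC-3 the same median was 0.07 and 0.26 in the 2 controls and between -0.12 and 0.02 in the 6 PDA-66 samples. DMSO replicate 3 was above replicate 2 for 29 of 40 members, against 49.7% of all genes, and ATF4 was at 304 CPM in replicate 2 and 694 CPM in replicate 3. In CT1258 the controls lay at 0.58, 0.86 and 0.64, and the 3 samples at 12 h between -0.62 and -0.55.

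**Figure D2:**
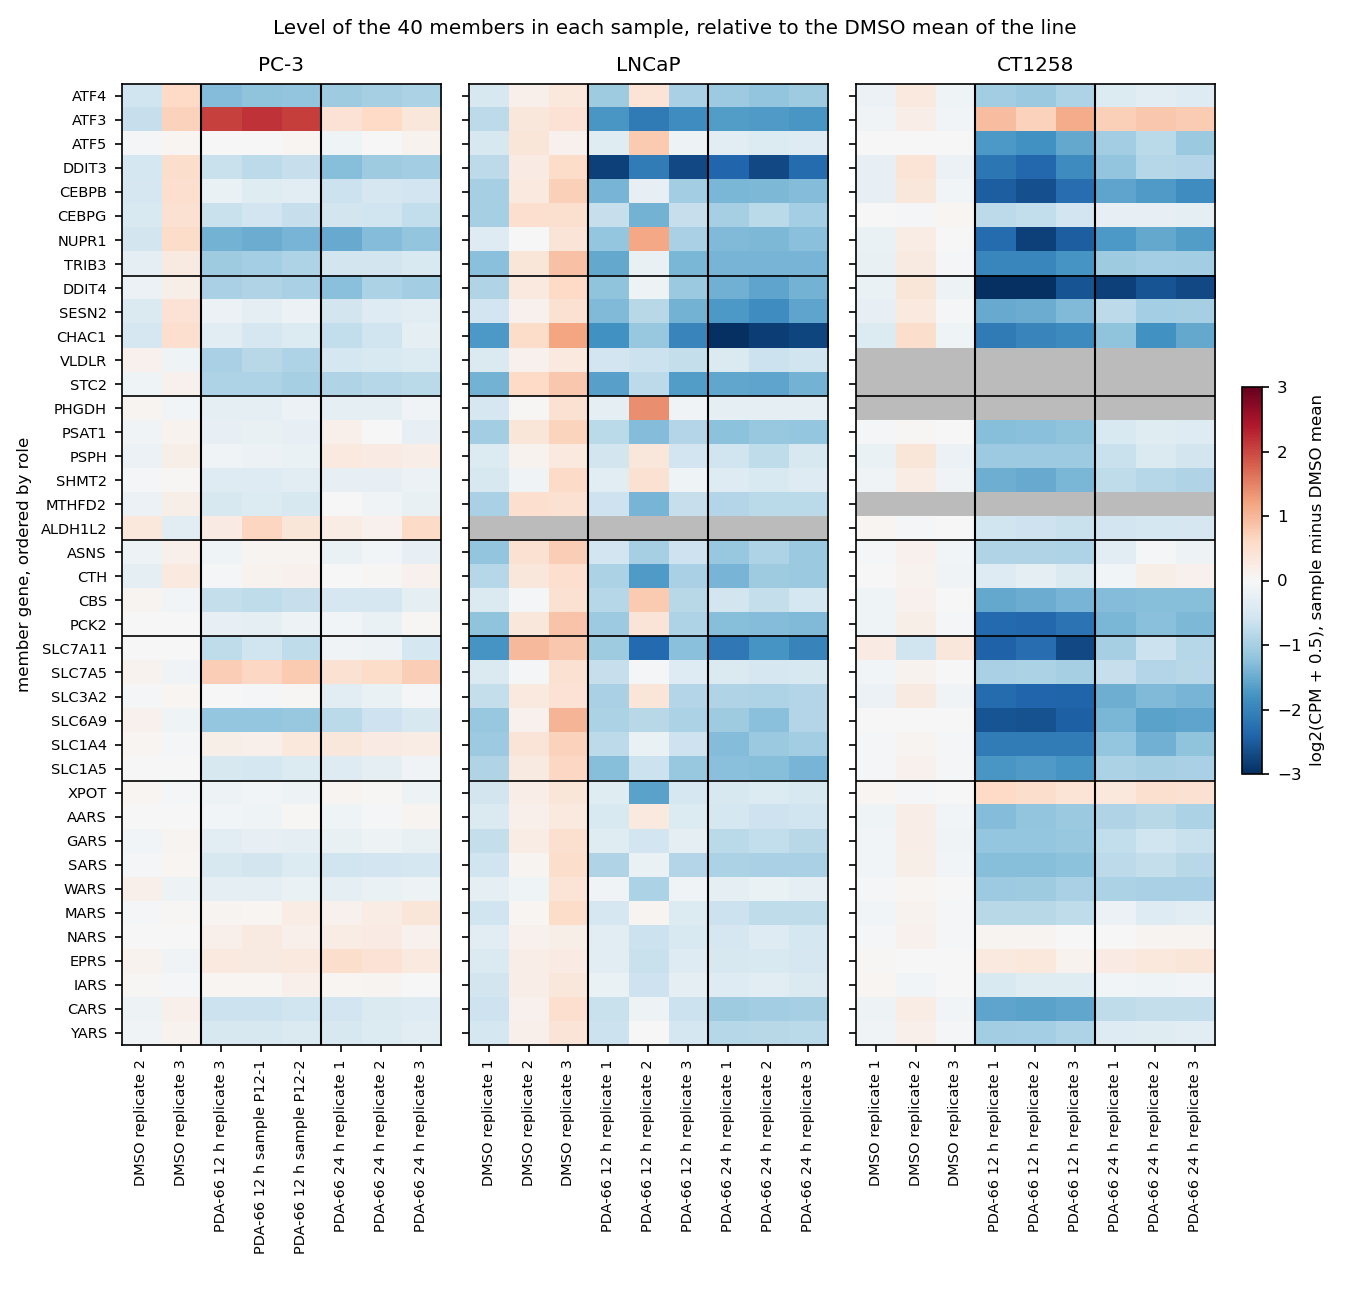
Level of each of the 40 members (rows, ordered by role) in each sample (columns) as log2(CPM + 0.5) minus the DMSO mean of the line, with grey for members not listed or under 1 CPM in every sample. The CT1258 12 h columns are the lowest of that line for most members, and DMSO replicate 1 of LNCaP is lower than the other 2 controls in all 39 tested rows.

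Compared with DMSO, the members were mostly lower under PDA-66, and most clearly so in CT1258. Genes were called at an adjusted p under 0.001 (edgeR, quasi-likelihood test, adjusted after Benjamini and Hochberg across the genes tested), the threshold of the study. Rose, fell and called refer to this test unless another is named. In CT1258 31 of 36 members fell and 2 rose at 12 h, where 44.3% of all genes were called and 22.1% fell. At 24 h 23 fell and 2 rose, against 33.8% of all genes called and 17.2% lower. In PC-3 12 of 40 fell and 2 rose at 12 h, against 27.6% of all genes called and 14.6% lower, and 6 fell and 1 rose at 24 h, against 19.3% called, 10.5% lower and 8.88% higher. The PC-3 share at 24 h, 17.5% of members, was close to that of all genes.

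At the wider threshold of 0.05, 23 PC-3 members (57.5%) were called at 12 h, a share near the 57% of all genes, and 20 of them were lower, where 28.7% of all genes were. At 24 h 21 were called (52.5%), near the 49.9% of all genes, and 18 were lower, against 25.6%. In CT1258 35 of 36 were called at 12 h, against 69.8% of all genes, and 32 were lower, against 35%. At 24 h 32 were called, against 62.1%, and 29 were lower, against 31.6%. Groups without overlap with DMSO were seen for 30 PC-3 members at 12 h (70.9% of all genes) and 26 at 24 h (61.9%). The numbers for LNCaP were 5 (28.1%) and 26 (44.7%), and those for CT1258 35 (72.8%) and 33 (66.3%). The 24 h and 12 h groups did not overlap for 17 PC-3 members, where 37.3% of all genes did not, for 15 LNCaP members (18.5%) and for 30 CT1258 members (46.1%).

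In LNCaP 0 of 39 members were called at 0.001 by edgeR's quasi-likelihood test at either time, where 0.0076% of all genes were called at 12 h and 0% at 24 h. The study, which also used edgeR at this threshold, reported far more LNCaP genes called at both times. Which edgeR test the study used is not stated. At an unadjusted p under 0.05, 21 members were lower at 12 h, against 14.4% of all genes, and 31 at 24 h, against 11.2%, and none was higher, against 15.7% and 8.6%. Other tools gave other counts at 0.001: DESeq2 called 3 members at 12 h and 5 at 24 h, edgeR's likelihood ratio test 3 and 4, and limma voom, in which samples were weighted by quality, 22 and 31, all of them lower. Limma called 7.15% and 5.63% of all genes lower, DESeq2 2.1% and 1.09%, and the likelihood ratio test 2.09% and 1.08%. At an adjusted p under 0.05 in the quasi-likelihood test, 4 of 39 fell at 12 h, against 9.14% of all genes called and 4.62% lower, and 4 fell at 24 h, against 2.92% called and 1.57% lower. None rose, against 4.52% and 1.35% of all genes. LNCaP members are named below at this threshold.

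The LNCaP counts depended on the fit and on single samples. With only both groups compared, 0 members passed 0.05 at 12 h, where 0.0154% of all genes were lower, and 29 fell at 24 h, against 12.4%. With the replicate number as a block, 2 fell at 12 h, against 1.44% of all genes, and 0 at 24 h, against 0.0988%, so the block ended all 4 calls at 24 h. Without DMSO replicate 1, 24 members fell at 12 h and 27 at 24 h at an adjusted p under 0.05, where 7.01% and 4.05% of all genes fell. Without replicate 2 at 12 h, 19 and 32 members fell, where 15% and 14.5% of all genes fell. Without DMSO replicate 2 or 3, 2 members fell at 12 h, against 1.13% and 0.918% of all genes, and 0 at 24 h, against 0.0978% and 0.0753%, and without any 1 of the 24 h samples 0 fell at 24 h, against at most 0.015%. In PC-3, 21 members were called at 12 h without DMSO replicate 2, against 30.9% of all genes, and 11 without replicate 3, against 23.8%, where the 1 control left is assumed to vary like the other groups. Without replicate 3 at 12 h, 8 were called at 12 h, against 18% of all genes. At 24 h the count was 15 without DMSO replicate 2, against 24.3% of all genes, and 2, 3 and 4 without 24 h replicates 1, 2 and 3, against 12.7%, 11.3% and 15.8%.

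The median log2 fold change over the tested members at 12 h was -0.28 for PC-3, -0.69 for LNCaP and -1.26 for CT1258, and at 24 h -0.21, -1.09 and -0.82 in that order, whereas the median over all genes tested was -0.01 at both times in PC-3 and lay between -0.01 and 0.03 in the others. As a percentage of the DMSO mean, the median PC-3 member stood at 82.3% and then 86.2%, the median LNCaP member at 61.9% and then 47%, and the median CT1258 member at 41.8% and then 56.5%. Below 50% of the DMSO mean were 4 members at either time in PC-3, 13 and then 21 in LNCaP, and 25 and then 12 in CT1258. The controls enter both times of a line. Leaving out 1 sample moved the LNCaP median between -0.94 and -0.39 at 12 h and between -1.35 and -0.78 at 24 h, the ends being the fits without DMSO replicates 1 and 3. The PC-3 median moved between -0.38 and -0.18 at 12 h and between -0.25 and -0.078 at 24 h, the ends being the fits without DMSO replicates 2 and 3. The medians were not tested between lines.

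**Figure D3:**
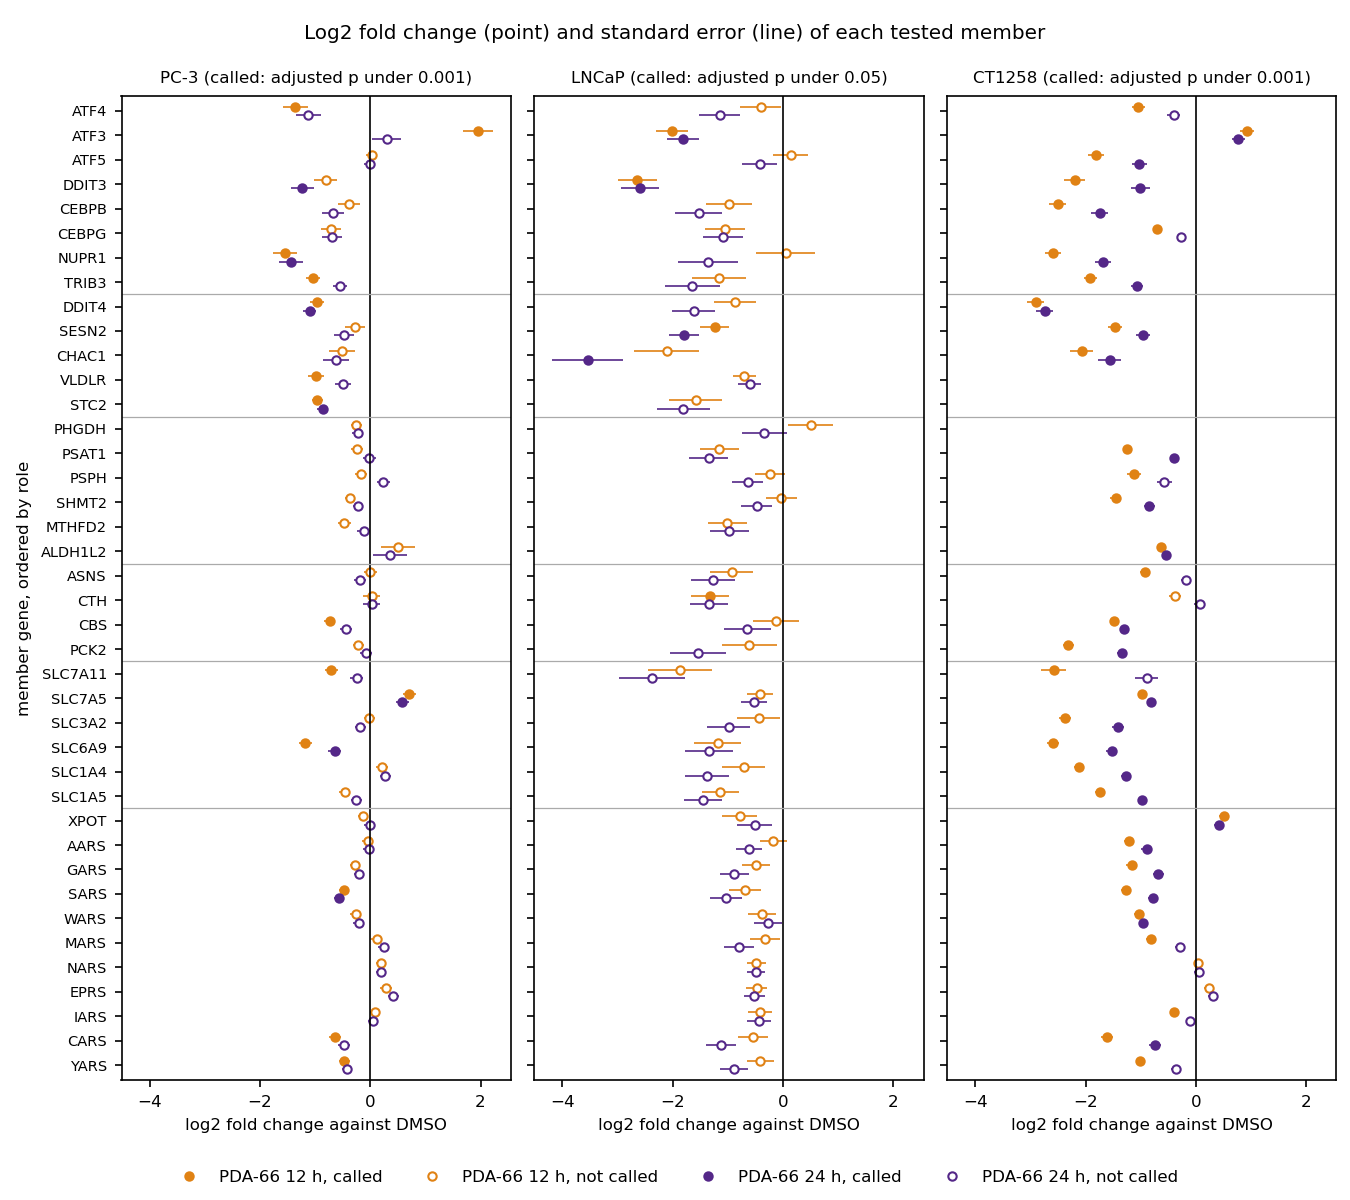
Log2 fold change against DMSO (x axis) with its standard error for each tested member (y axis, ordered by role) at 12 h and 24 h in the 3 lines, with called members filled. In CT1258 31 of 36 points at 12 h are called to the left of 0, and ATF3 and XPOT are called to the right of it.

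ATF4 itself (chr22:39915700-39918688 in GRCh37, plus strand) was lower in both PC-3 and CT1258. In PC-3 it stood at 304 and 694 CPM in the controls, at 186, 198 and 200.5 CPM at 12 h and at 220.5, 229.9 and 237 CPM at 24 h. All exposed samples were below both controls, and the controls were themselves far apart. ATF4 fell by 1.36 ± 0.22 on the log2 scale (log2 fold change ± SE) at 12 h (edgeR adjusted p = 0.000205). This call was lost without replicate 3 at 12 h or at 24 h, and with only both groups compared. The change at 24 h was -1.12 ± 0.22 (edgeR adjusted p = 0.00116), past the threshold of 0.05 but not 0.001. At 24 h ATF4 was called at 0.001 with the replicate block, limma voom, the likelihood ratio test and no low-count filter, but not with DESeq2 or only both groups compared.

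In LNCaP ATF4 was at 538, 842 and 939.7 CPM in DMSO, at 361, 1006 and 382 CPM at 12 h and at 354, 333 and 359.6 CPM at 24 h. The 12 h groups overlapped through replicate 2, and the change of -0.41 ± 0.37 was not called by the quasi-likelihood test (edgeR adjusted p = 0.486). At 24 h the groups did not overlap, with a change of -1.15 ± 0.38 (edgeR adjusted p = 0.129). Limma voom with quality weights called ATF4 lower in LNCaP at both times at 0.001. In CT1258 ATF4 was at 1626, 2244 and 1661 CPM in DMSO, at 878, 837 and 963 CPM at 12 h and at 1362, 1450.5 and 1385 CPM at 24 h. It fell by 1.05 ± 0.12 at 12 h (edgeR adjusted p = 2.95e-06) and stood closer to the controls at 24 h, with -0.40 ± 0.12 (edgeR adjusted p = 0.00837).

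**Figure D4:**
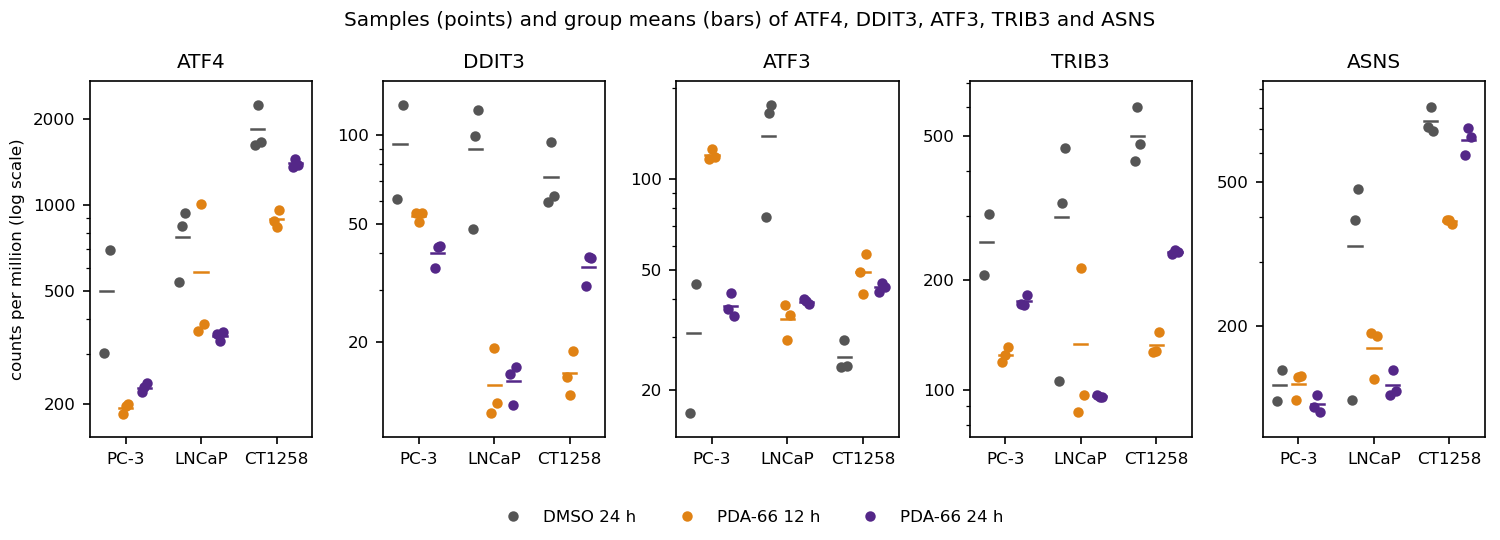
CPM on a log axis of ATF4, DDIT3, ATF3, TRIB3 and ASNS in every sample (points) with group means (bars) for the 3 lines. ATF3 is above the controls at 12 h in PC-3 (117 to 126 against 16.8 and 45.1 CPM) and in CT1258, and below them in LNCaP.

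ATF3, a stress-induced factor that is also an ATF4 target, moved in opposite directions. In PC-3 it was at 16.8 and 45.1 CPM in DMSO, at 117, 126 and 118 CPM at 12 h and at 37.2, 41.9 and 35.2 CPM at 24 h. It rose by 1.96 ± 0.27 on the log2 scale at 12 h (edgeR adjusted p = 5.03e-05), though not past 0.001 with only both groups compared (adjusted p = 0.00131), and at 24 h lay between both controls (0.30 ± 0.27, adjusted p = 0.372). From 12 h to 24 h it fell by 1.66 ± 0.23 (edgeR adjusted p = 0.00062), and no other member was called between both PC-3 times by the quasi-likelihood test, where 1.41% of all genes were called and 0.631% were lower. This last call was lost in 6 of 8 fits that each left out 1 sample, with adjusted p up to 0.00924 over all alternatives.

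In LNCaP ATF3 was at 75.1, 165 and 176 CPM in DMSO, at 38.2, 29.3 and 35.5 CPM at 12 h and at 39.96, 39.6 and 38.5 CPM at 24 h. No exposed sample reached a control. ATF3 fell by 2.01 ± 0.29 at 12 h (edgeR adjusted p = 0.00784) and by 1.81 ± 0.29 at 24 h (adjusted p = 0.022), with the 12 h call lost with only both groups compared (adjusted p = 0.0664) and the 24 h call lost with the replicate block and in 5 of 9 fits that each left out 1 sample. In CT1258 it was at 23.9, 29.3 and 24.0 CPM in DMSO, at 49.4, 41.6 and 56.4 CPM at 12 h and at 42.3, 45.2 and 44.1 CPM at 24 h. There it rose by 0.93 ± 0.12 and 0.77 ± 0.12 (edgeR adjusted p = 1.27e-05 and 0.000104). The response differed between LNCaP and each of the other lines at 12 h, by 3.99 ± 0.42 from PC-3 (edgeR adjusted p = 7.29e-07) and by 2.99 ± 0.38 from CT1258 (adjusted p = 4.07e-06). Both differences passed 0.05 in all alternatives tried.

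DDIT3, the CHOP factor (chr12:57910371-57915520 in GRCh37, minus strand), fell in LNCaP and CT1258 at both times and in PC-3 at 24 h. Of its exon bases, 31.6% overlap MARS1 or MBD6 on the other strand, and whether counting used the strand is not stated. In PC-3 DDIT3 was at 61 and 126 CPM in DMSO, at 54.8, 51.0 and 54.5 CPM at 12 h and at 35.7, 41.9 and 42.2 CPM at 24 h. All exposed samples were below both controls. The change at 12 h was -0.81 ± 0.21 (edgeR adjusted p = 0.00493), past 0.05 but not 0.001, although DESeq2 and the likelihood ratio test called it at 0.001. It fell by 1.23 ± 0.21 at 24 h (edgeR adjusted p = 0.000378), a call lost without any 1 of the 24 h samples. In LNCaP it was at 48.3, 99.3 and 122 CPM in DMSO, at 11.6, 19.2 and 12.5 CPM at 12 h and at 15.6, 12.3 and 16.5 CPM at 24 h. The groups were far apart even with DMSO replicate 1, and DDIT3 fell by 2.64 ± 0.35 at 12 h (edgeR adjusted p = 0.00637) and by 2.60 ± 0.35 at 24 h (adjusted p = 0.016). The 12 h call was lost with only both groups compared (adjusted p = 0.0609), and the 24 h call with the replicate block and in 5 of 9 such fits. In CT1258 it was at 59.7, 94.5 and 62.1 CPM in DMSO, at 15.3, 13.3 and 18.7 CPM at 12 h and at 30.9, 38.7 and 38.4 CPM at 24 h. It fell by 2.19 ± 0.19 and by 1.00 ± 0.17 (edgeR adjusted p = 2.48e-07 and 0.000186), the 24 h call being lost without 24 h replicate 1.

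TRIB3, a pseudokinase induced by ATF4 and DDIT3, was at 207 and 305 CPM in the PC-3 controls, at 119, 124 and 131 CPM at 12 h and at 172, 171 and 183 CPM at 24 h. It fell by 1.04 ± 0.13 at 12 h (edgeR adjusted p = 2.4e-05) and stood between its 12 h level and the controls at 24 h (-0.55 ± 0.13, adjusted p = 0.00412). In LNCaP it was at 106, 327 and 465 CPM in DMSO, at 87.0, 216 and 96.8 CPM at 12 h and at 96.5, 95.6 and 95.4 CPM at 24 h, with -1.64 ± 0.50 at 24 h (edgeR adjusted p = 0.106), and limma voom called it lower at both times at 0.001. The 24 h samples hardly differed among themselves, and DMSO replicate 1 lay beside them. In CT1258 TRIB3 was at 427, 601 and 474 CPM in DMSO, at 127, 128 and 144 CPM at 12 h and at 236, 243 and 239.5 CPM at 24 h, and fell by 1.91 ± 0.12 and 1.06 ± 0.11 (edgeR adjusted p = 1.32e-08 and 3.11e-06).

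NUPR1, a small chromatin protein of the stress response, was among the members that fell most in PC-3 and CT1258. In PC-3 it was at 87.2 and 186 CPM in DMSO, at 47.4, 45.4 and 47.9 CPM at 12 h and at 44.6, 51.5 and 55.8 CPM at 24 h, and fell by 1.54 ± 0.22 and 1.43 ± 0.22 (edgeR adjusted p = 5.67e-05 and 0.000154), the 24 h call being lost without 24 h replicate 1 or 3 and the 12 h call with only both groups compared. In CT1258 it was at 44.2, 59.5 and 51.1 CPM in DMSO, at 9.99, 6.96 and 8.82 CPM at 12 h and at 15.1, 17.4 and 15.7 CPM at 24 h, and fell by 2.59 ± 0.15 and 1.68 ± 0.14 (adjusted p = 9.7e-09 and 3.52e-07). The exposed samples of both lines lay below every control. In LNCaP replicate 2 at 12 h, with 339 CPM, was above the controls at 115, 150.4 and 199 CPM, while the other two were at 66.9 and 76.6 CPM, and the quasi-likelihood test called the change at neither time. Limma voom called NUPR1 lower in LNCaP at both times at 0.001, and without replicate 2 at 12 h the quasi-likelihood test called it at 24 h at 0.001.

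CEBPB, which pairs with ATF4 on DNA, fell in CT1258 from 100.1, 150.3 and 112 CPM in DMSO to 21.0, 18.7 and 24.1 CPM at 12 h and 39.5, 36.2 and 32.3 CPM at 24 h. The decrease was 2.51 ± 0.15 and 1.74 ± 0.15 on the log2 scale (edgeR adjusted p = 1.56e-08 and 4.32e-07), with no overlap. In the quasi-likelihood test it was not called at 0.001 in PC-3 or at 0.05 in LNCaP, where limma voom with quality weights called it lower at both times at 0.001. Of the 8 transcription factors and regulators, 7 fell in CT1258 at 12 h and 5 at 24 h, and ATF3 rose at both times, where 22.1% and 17.2% of all genes fell and 22.2% and 16.6% rose. In PC-3 3 fell at 12 h and 2 at 24 h, against 14.6% and 10.5% of all genes.

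Of the stress effectors, 3 of 3 tested fell in CT1258 at both times, where 22.1% and 17.2% of all genes fell. In PC-3 3 of 5 fell at 12 h and 2 at 24 h, against 14.6% and 10.5%, and in LNCaP 1 of 5 at 12 h and 2 at 24 h, against 4.62% and 1.57% at the threshold of 0.05. DDIT4 (REDD1), which restrains mTORC1, had the largest decrease of all members in CT1258, from 185, 272 and 191 CPM in DMSO to 25.4, 26.4 and 34.7 CPM at 12 h and 30.1, 35 and 32 CPM at 24 h. It fell by 2.90 ± 0.16 and 2.74 ± 0.16 (edgeR adjusted p = 5.67e-09 and 1.21e-08) and hardly moved between both times. In PC-3 DDIT4 was at 62.5 and 79.3 CPM in DMSO, at 35.7, 37.5 and 35.6 CPM at 12 h and at 29.3, 36.1 and 34.0 CPM at 24 h. It fell by 0.97 ± 0.12 and 1.10 ± 0.12 (edgeR adjusted p = 2.1e-05 and 1.3e-05), and both controls, unlike those of ATF4, were close to each other.

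CHAC1, which breaks down glutathione, had the largest decrease of the called members in LNCaP. It was at 5.86, 30.0 and 47.0 CPM in DMSO, at 5.44, 8.97 and 4.81 CPM at 12 h and at 2.03, 2.46 and 2.61 CPM at 24 h. All 24 h samples were below the lowest control, and CHAC1 fell by 3.54 ± 0.65 at 24 h (edgeR adjusted p = 0.0299), a call lost with the replicate block and in 5 of 9 fits that each left out 1 sample. SESN2, a sestrin that senses leucine for mTORC1, was the other effector called in LNCaP, by -1.24 ± 0.27 at 12 h and -1.80 ± 0.27 at 24 h (edgeR adjusted p = 0.024 and 0.0192), with the calls lost in 3 and 5 of 9 such fits, both with the replicate block and the 12 h call with only both groups compared. In PC-3 the secreted glycoprotein gene STC2 fell by 0.96 ± 0.10 and 0.87 ± 0.10 at 12 h and 24 h (edgeR adjusted p = 2.88e-06 and 1.25e-05), and its calls held in all alternatives tried.

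The amino acid transporters fell together in CT1258. All 6 tested were called lower at 12 h, with a median log2 fold change of -2.24, and 5 at 24 h, with a median of -1.12, where 22.1% and 17.2% of all genes fell. SLC6A9, the glycine transporter GLYT1, went from 95.9, 97.8 and 95.1 CPM in DMSO to 15.5, 15.3 and 17.2 CPM at 12 h and 37.1, 31.2 and 32 CPM at 24 h, and fell by 2.59 ± 0.10 and 1.52 ± 0.10 (edgeR adjusted p = 9.36e-10 and 2.88e-08). The 3 groups did not overlap. SLC7A11, the cystine transporter, fell by 2.57 ± 0.23 at 12 h (edgeR adjusted p = 3.79e-07). SLC3A2, the heavy chain shared by SLC7A11 and SLC7A5, fell by 2.38 ± 0.11 at 12 h (edgeR adjusted p = 1.75e-09).

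In PC-3 the transporters went different ways. SLC7A5, the leucine transporter LAT1, was at 377 and 323 CPM in DMSO, at 583, 537 and 597 CPM at 12 h and at 482, 509.6 and 580.5 CPM at 24 h. It rose by 0.71 ± 0.11 and 0.58 ± 0.11 (edgeR adjusted p = 0.00014 and 0.000855), and all exposed samples were above both controls, although the 12 h call was lost without 12 h replicate 3, and the 24 h call in 7 of 8 fits that left out 1 sample, with the replicate block, with only both groups compared and with limma voom. SLC6A9 was at 50.1 and 42.0 CPM in DMSO, at 20.3, 20.4 and 20.6 CPM at 12 h and at 26.0, 29.8 and 32.7 CPM at 24 h. It fell by 1.17 ± 0.12 and 0.64 ± 0.12 (edgeR adjusted p = 3.78e-06 and 0.000664), and the groups did not overlap, although the 24 h call was lost in 6 of 8 such fits, with scaling by library size alone, with the replicate block, with only both groups compared and with limma voom. The SLC7A5 response differed from that in CT1258 by 1.67 ± 0.24 at 12 h (edgeR adjusted p = 1.71e-05), where SLC7A5 fell from 722, 829 and 756 CPM to 390.3, 397 and 387 CPM. In LNCaP the quasi-likelihood test called 0 of 6 transporters at 0.05, with medians of -0.92 and -1.36. At 0.001 limma voom with quality weights called SLC1A5, SLC3A2 and SLC7A11 lower at 12 h, and at 24 h these and SLC1A4 and SLC6A9, and DESeq2 called SLC7A11 at 24 h.

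Among the enzymes, ASNS, the asparagine synthetase and a classical ATF4 target, was called by the quasi-likelihood test in CT1258 at 12 h and in no other comparison with DMSO. Of its exon bases, 49.3% overlap an unnamed gene on the same strand, and these reads cannot be told apart. In CT1258 ASNS was at 710.3, 806 and 693 CPM in DMSO, at 392, 394 and 384 CPM at 12 h and at 593, 703 and 664 CPM at 24 h. It fell by 0.92 ± 0.09 at 12 h (edgeR adjusted p = 8.41e-07), and at 24 h the groups overlapped (-0.17 ± 0.09, adjusted p = 0.103). In PC-3 it was at 125 and 152 CPM in DMSO, at 125, 145 and 146 CPM at 12 h and at 119.8, 129.6 and 116 CPM at 24 h, with changes of 0.00 ± 0.11 and -0.18 ± 0.11 that were not called (edgeR adjusted p = 0.982 and 0.197). In LNCaP it was at 125, 393 and 479 CPM in DMSO, at 192, 143 and 188 CPM at 12 h and at 129, 151 and 133 CPM at 24 h. DMSO replicate 1 lay below all 6 exposed samples of LNCaP, and the changes were not called (-0.93 ± 0.39 and -1.27 ± 0.39, adjusted p = 0.147 and 0.112), though limma voom called ASNS at 24 h at 0.001.

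CTH, which makes cysteine from cystathionine, was the 1 enzyme called in LNCaP by the quasi-likelihood test. Limma voom called CTH, CBS, PCK2, PSAT1 and MTHFD2 lower at both times at 0.001, and ASNS and PSPH at 24 h. CTH was at 12.6, 29.3 and 33.1 CPM in DMSO, at 11.7, 6.75 and 11.5 CPM at 12 h and at 8.47, 10.8 and 10.3 CPM at 24 h, and fell by 1.32 ± 0.35 at 12 h (edgeR adjusted p = 0.0454), a call lost in 6 of 9 fits that left out 1 sample, with the replicate block and with only both groups compared. Its partner CBS, in which 36.8% of exon bases overlap an unnamed gene on the same strand, fell in PC-3 at 12 h by 0.74 ± 0.10 (edgeR adjusted p = 5.75e-05). In CT1258 PCK2, the mitochondrial phosphoenolpyruvate carboxykinase, fell by 2.31 ± 0.09 at 12 h and 1.33 ± 0.09 at 24 h (edgeR adjusted p = 1.03e-09 and 5.81e-08). All 4 serine and one-carbon enzymes tested in CT1258, PSAT1, PSPH, SHMT2 and ALDH1L2, fell at 12 h, with a median of -1.18. The share of all genes that fell there is the one given above for the transporters. At 24 h PSPH was not called at 0.001, and the PSAT1 call was lost with the replicate block and with only both groups compared. This PSAT1 call was also lost without DMSO replicate 3, without 12 h replicate 2 and without any 1 of the 24 h samples. In PC-3 0 of 6 were called at 0.001 by edgeR's quasi-likelihood test, against 3 lower at 0.05 at 12 h. The shares of all PC-3 genes lower at these thresholds are those given above for all members. In PC-3 at 12 h, DESeq2 and edgeR's likelihood ratio test called MTHFD2 and SHMT2 at 0.001.

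The tRNA export and synthetase genes had the median closest to 0 in 4 of the 6 comparisons with DMSO. Their median log2 fold change at 12 h and 24 h was -0.13 and -0.03 for PC-3, -0.48 and -0.62 for LNCaP, and -1.01 and -0.37 for CT1258. In CT1258 8 of 11 fell at 12 h, against 22.1% of all genes, with CARS at -1.61 ± 0.11 (edgeR adjusted p = 2.86e-08), while NARS and EPRS, with 0.05 and 0.23, were not called. XPOT, which carries tRNA out of the nucleus, rose there from 425, 390.0 and 408 CPM in DMSO to 619, 583 and 540.5 CPM at 12 h and 508, 566 and 563 CPM at 24 h. Neither PDA-66 group overlapped the controls, and the increase was 0.51 ± 0.08 and 0.42 ± 0.08 (edgeR adjusted p = 9.22e-05 and 0.000617). The 12 h call was lost without 12 h replicate 1, and the 24 h call in 6 of 9 fits that left out 1 sample, with the replicate block and with only both groups compared. In PC-3 CARS, SARS and YARS fell at 12 h by 0.64, 0.48 and 0.47, and only SARS, by 0.56, at 24 h. At 12 h these calls were lost in 3, 6 and 7 of 8 fits that left out 1 sample, and the SARS call at 24 h was lost without 24 h replicate 1 or 2, with the replicate block and with only both groups compared.

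Levels in CT1258 were closer to the controls at 24 h than at 12 h for most members. Exposure and culture time differ together between these groups and cannot be told apart. Compared directly, 11 of 36 members were higher at 24 h than at 12 h and 0 lower at 0.001, where 2.13% of all genes were called and 0.85% were higher. At an adjusted p under 0.05, 26 were higher and 0 lower, against 9.08% of all genes higher, and at an unadjusted p under 0.05, 27 were higher and 0 lower, against 16% and 16.5% of all genes. The 11 were SLC7A11 (1.68 ± 0.24), SLC6A9 (1.06 ± 0.11), PCK2, SLC3A2, CARS, TRIB3, PSAT1, SLC1A4, SLC1A5, ASNS and YARS, the last with 0.64 ± 0.08, all by edgeR's quasi-likelihood test (adjusted p up to 0.00044). Without 1 of the 6 PDA-66 samples the count was 2 to 7, where 0.0502% to 0.362% of all genes were higher, with 2 left without 12 h replicate 1. Without DMSO replicate 2 it was 25, against 6.27% of all genes higher. The median over members was 0.53 and kept its direction in each of these fits. DDIT4, SLC7A5 and CBS, with 0.17, 0.17 and 0.18, were not called.

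**Figure D5:**
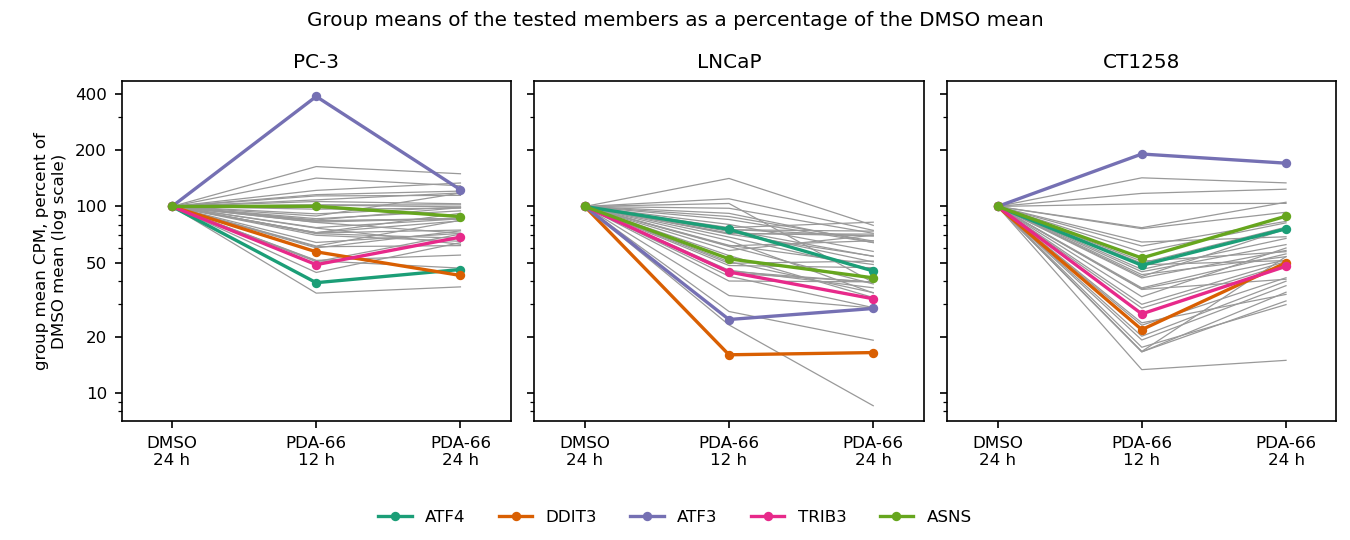
Group mean CPM as a percentage of the DMSO mean (log axis) for each tested member (grey lines) in DMSO at 24 h and after 12 h and after 24 h of PDA-66, with 5 members coloured. In CT1258 25 of 36 members are under 50% at 12 h and 12 at 24 h, and in LNCaP 13 and then 21 of 39 are.

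In PC-3, 0 members were higher at 24 h than at 12 h at 0.001 in edgeR's quasi-likelihood test, against 0.777% of all genes, and 8 were higher at an unadjusted p under 0.05, against 12.8%. DESeq2 and the likelihood ratio test each called 1 higher, SLC6A9, and limma voom 7, against 2.18%, 2.9% and 8.5% of all genes. At an adjusted p under 0.05, 7 were called, against 10.1% of all genes, 1 of them lower, against 4.5%, and 6 higher, against 5.59%: TRIB3, VLDLR, PSPH, MTHFD2, SLC7A11 and SLC6A9. In LNCaP 0 members and 0% of all genes were called between both times by edgeR's quasi-likelihood test at 0.001 or 0.05. At an unadjusted p under 0.05, 2 LNCaP members were lower, against 3.7% of all genes, and limma voom with sample quality weights called 6 lower at an adjusted p under 0.05, against 8.43%. The LNCaP median of -0.41 became -0.14 without replicate 2 at 12 h.

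Direction was shared among the lines for most members. Of 35 members tested in all 3 lines, 23 (65.7%) had a log2 fold change below 0 in every line at 12 h, against 11.7% of the 8265 genes tested in all. At 24 h 25 (71.4%) did, against 16.2%. None was above 0 in all 3 at either time. The 12 members outside this set at 12 h were ASNS, ATF3, ATF5, CTH, EPRS, IARS, MARS, NARS, NUPR1, SLC1A4, SLC7A5 and XPOT. These are counts of signs, without a test, and the members of a line share its controls.

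Whether the lines differed in size of response was tested as the difference of their log2 fold changes over the 11736 genes shared by symbol and tested, of which 38 are members. STC2 and VLDLR, at 0 in CT1258, and ALDH1L2, under the filter in LNCaP, could not be tested in pairs with those lines and are not among the counts. This leaves 37 members for PC-3 and LNCaP, 36 for PC-3 and CT1258 and 35 for LNCaP and CT1258. At 12 h 7 members differed between PC-3 and LNCaP at an adjusted p under 0.05, against 19.6% of all genes, 22 between PC-3 and CT1258, against 30.1%, and 18 between LNCaP and CT1258, against 40.2%. At 24 h the counts were 13, 7 and 11, against 9.7%, 21.2% and 21.1%. Among genes that passed the filter in both lines of a pair, the shares of all genes were 22.7%, 37.7% and 52.8% at 12 h and 11.1%, 27.1% and 28% at 24 h. The counts for LNCaP and CT1258, and that for PC-3 and LNCaP at 12 h, were close to these shares. Leaving out 1 sample moved the 12 h counts to 6 to 18, 13 to 29 and 17 to 26, and the 24 h counts to 6 to 27, 4 to 15 and 4 to 18. The 18 and 27 for PC-3 and LNCaP came without LNCaP DMSO replicate 1, where 26.7% and 14.9% of all genes that passed in both lines differed. The 29 for PC-3 and CT1258 came without LNCaP replicate 2 at 12 h (55.8%) and the 13 without PC-3 DMSO replicate 2 (33.7%). ATF4 did not pass in any of the 6. The SLC3A2 change in PC-3 was above that in CT1258 at 12 h by 2.34 ± 0.39 (edgeR adjusted p = 7.45e-05), and SLC1A4, a neutral amino acid transporter, by 2.31 ± 0.37 (adjusted p = 5.32e-05). ATF5, a factor related to ATF4, fell in CT1258 by 1.81 and differed there from PC-3 by 1.82 ± 0.34 (adjusted p = 0.000283). The canine and human counts came from other annotations and aligners, which cannot be told apart from the line.

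The controls of the human lines differed for some members. In a joint fit of both lines, 7 of 40 differed between PC-3 and LNCaP DMSO at 0.001, against 40.8% of all genes. ATF3 differed by -2.13 ± 0.36 (PC-3 minus LNCaP) (edgeR adjusted p = 6.59e-05) and DDIT4 by -1.75 ± 0.35 (adjusted p = 0.000366); CBS, PCK2 and AARS were also lower in PC-3, and WARS was higher. The remaining one, ALDH1L2, passed the filter through PC-3 alone, with 1.09 and 1.99 CPM there and at most 0.245 CPM in the LNCaP controls. Of the 39 members that passed in both lines, 6 were called, against 34.1% of such genes. The calls named here depended on single controls. Their count moved down without PC-3 DMSO replicate 2, which leaves a single PC-3 control, and up without LNCaP DMSO replicate 1. The share of all genes in these fits is not given, so these counts are not read against it. Line and medium cannot be told apart.

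Other genes of the pathway were listed by function, with earlier results of these data known. Of 28 further ATF4 responsive genes tested in PC-3, 3 rose and 5 fell at 12 h at 0.001, a share near that of all genes (13% higher and 14.6% lower), with GDF15, a secreted stress cytokine, at -2.84 and TXNIP, which binds thioredoxin, at 2.53. In LNCaP 1 of 28 rose and 7 fell at 0.05, against 4.52% and 4.62% of all genes, with GDF15 at -2.14. In CT1258 3 of 21 rose and 14 fell at 12 h, against 22.2% and 22.1% of all genes, with PYCR1, which makes proline, at -2.39. Of the kinases, eIF2 subunits and phosphatase subunits, 2 of 14 rose in PC-3 at 12 h, near the 13% of all genes, among them the kinase gene EIF2AK2 at 0.99. In CT1258 5 of 13 rose and 4 fell, against 22.2% and 22.1% of all genes, with PPP1R15A, the stress-induced subunit that returns eIF2 to its unphosphorylated state, at -2.34.

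Of the ER stress genes of the ATF6 and XBP1 arms, 0 of 20 rose and 3 fell in PC-3 at 12 h, against 13% and 14.6% of all genes, and 0 rose and 6 fell at 24 h, against 8.88% and 10.5%. In CT1258 1 of 17 rose and 9 fell at 12 h, against 22.2% and 22.1% of all genes, with CALR, the chaperone calreticulin, at -1.88, and 6 of 17 were higher at 24 h than at 12 h, against 0.85%, with HERPUD1 at 1.58. The 10 other cytosolic tRNA synthetases had 1 higher and 1 lower call in PC-3 and 2 higher and 4 lower in CT1258 at 12 h, where the shares of all genes are those just given. Of the other serine, glycine and folate enzymes in PC-3, 5 of 14 rose and 3 fell at 12 h, against 13% and 14.6% of all genes, with TYMS, which makes thymidylate, at 0.90.

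Summed markers of cell types moved with exposure in PC-3. The summed level of 4 endothelial markers was 145 to 176 CPM in DMSO, 23.6 to 24.3 CPM at 12 h and 46.6 to 51.8 CPM at 24 h, carried mainly by KDR, with CDH5 and VWF at most 0.335 CPM. The 5 immune markers summed to 13.7 to 20.2, 1.95 to 2.43 and 2.23 to 3.32 CPM, mainly LYZ, and the 6 fibroblast markers to 48.3 to 70.5, 12.6 to 15.6 and 18.6 to 24.5 CPM. The 7 luminal markers summed to 754 to 814, 249 to 266 and 412 to 455 CPM, and the epithelial sum given above was also lower under PDA-66 than in DMSO. In LNCaP the luminal sum was 3938 to 4350 CPM in DMSO, 3271 to 3631 CPM at 12 h and 3904 to 4011 CPM at 24 h. The LNCaP epithelial sum was 1372 to 1476, 1350 to 2096 and 1499 to 1542 CPM in the same order. The LNCaP fibroblast sum was 19.4 to 127 CPM at 12 h and 21.1 to 28.4 CPM in DMSO. The LNCaP endothelial sum was 22.9 to 40.2 CPM in DMSO, 4.85 to 14.6 CPM at 12 h and 6.18 to 7.36 CPM at 24 h. It was carried by VWF, with PECAM1, CDH5 and KDR each at most 0.0823 CPM. In CT1258 the 4 fibroblast markers listed summed to 346 to 411, 355 to 453 and 376 to 405 CPM. This sum was mainly LUM, with COL1A1 and COL3A1 at most 0.298 CPM. The part of these summed markers in the members' changes was not tested.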

How the data were processed

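RNA-seq counts per gene were deposited by the authors, who aligned single reads with STAR 2.3.1s to hg19 (human) or BWA to CanFam3.1 (canine), per the labels. Strand use and multimapping are not given in the sources used here. One PC-3 24 h column deposited with trailing semicolons was stripped of them and read as counts. Each line was fitted alone in R 4.3.3 with edgeR 4.0.16: filterByExpr with a count minimum of 10, TMM scaling, its 3 groups together, the quasi-likelihood test and Benjamini-Hochberg adjustment over all genes tested. CPM uses TMM library sizes. Differences in response between lines were fitted over shared symbols. Calls were made at 0.001, as in the study, and at 0.05 for LNCaP and for differences. DESeq2 1.42.0 and limma 3.58.1 served as alternatives. The scripts were tested on simulated data. Older tRNA synthetase symbols were matched to current ones through RefSeq synonyms. Sample values are given for ATF4, DDIT3, ATF3, TRIB3 and ASNS, and for the members among the 3 that rose most or fell most per comparison with DMSO, with a mean of at least 10 CPM. Others were named after their values were seen. The members and lists were chosen with earlier results of these data known. In PC-3, the 12 h columns numbered 1 and 2 were used by group, because both samples carry the same description and neither column could be tied to a single one.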

Additional observations from a re-analysis of the deposited data

Results flagged for a closer look

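Differences in response between lines were singled out where their own test passed an adjusted p of 0.05 (counts) or 0.001 (single members) in edgeR's quasi-likelihood test. Of 37 members tested in both PC-3 and LNCaP, 7 differed at 12 h, against 22.7% of the genes tested in both, and 13 at 24 h, against 11.1%. Of 36 tested in PC-3 and CT1258, 22 differed at 12 h, against 37.7%, and 7 at 24 h, against 27.1%. Of 35 tested in LNCaP and CT1258, 18 differed at 12 h, against 52.8%, and 11 at 24 h, against 28%. These LNCaP and CT1258 counts, and that for PC-3 and LNCaP at 12 h, were close to the shares of all genes. Leaving out 1 sample moved these counts to 6 to 18 and 6 to 27, to 13 to 29 and 4 to 15, and to 17 to 26 and 4 to 18, in the same order.

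ATF3 differed by 3.99 on the log2 scale between PC-3 and LNCaP at 12 h, and by -2.99 at 12 h and -2.62 at 24 h between LNCaP and CT1258. Between PC-3 and CT1258 at 12 h ATF5 differed by 1.82, SLC7A5 by 1.67, SLC3A2 by 2.34 and SLC1A4 by 2.31, and at 24 h SLC7A5 differed by 1.38. Between LNCaP and CT1258 at 12 h ATF5 differed by 1.88, DDIT4 by 1.97, SHMT2, a serine hydroxymethyltransferase, by 1.36 and SLC3A2 by 1.87. Species, medium and aligner differ with the line for every comparison with CT1258 and cannot be told apart.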

How the results depend on the processing

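No result reversed. Leaving out 1 sample gave 8 to 21 called members in PC-3 at 12 h, 2 to 15 at 24 h and 0 to 2 between both times, and medians of -0.38 to -0.18 and -0.25 to -0.078. In LNCaP it gave 0 to 1, 0 to 3 and 0 to 0, and in CT1258 31 to 33, 23 to 29 and 2 to 25. Against DMSO, 0% to 0.742% of all genes fell at 12 h and 0% to 0.382% at 24 h in these LNCaP fits. For CT1258 the shares were 15.7% to 27.9% and 10.4% to 23.5%. Differences in response gave 6 to 18 and 6 to 27 members (PC-3 and LNCaP, 12 h and 24 h), 13 to 29 and 4 to 15 (PC-3 and CT1258), and 17 to 26 and 4 to 18 (LNCaP and CT1258). For untreated lines the count fell without PC-3 DMSO replicate 2 and rose without LNCaP DMSO replicate 1. The share of all genes in these fits is not given.

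With only both groups compared, the counts were 8 (7 lower) and 4 (4 lower) in PC-3 against DMSO, where 10.5% and 6.87% of all genes fell and 8.77% and 5.33% rose. They were 2 between its times (1 lower, against 1.66%, and 1 higher, against 1.94%) and 23, all higher, between those of CT1258, against 5.24%. In the following, the share of all genes called is in brackets. DESeq2 gave 12 in PC-3 at 24 h (25.9%), 2 between its times (3.73%), 3 and 5 in LNCaP (4.71% and 2.17%) and 20 between the CT1258 times (6.7%). The likelihood ratio test gave 13 (30.6%), 2 (5.05%), 3 (4.34%), 4 (1.96%) and 20 (7.38%) there. Limma voom with quality weights gave 9 between the PC-3 times (16.8%), 22 and 31 in LNCaP (13.9% and 11.2%) and 26 between the CT1258 times (21%), and with 1 variance factor per line 19 for PC-3 against CT1258 at 24 h (45.4%). At 0.05 the counts were 23, 21 and 7 in PC-3 (57%, 49.9% and 10.1%), 4 and 4 in LNCaP (9.14% and 2.92%), 26 between the CT1258 times (19.3%) and 17 for untreated lines (63.6%). At 0.001 differences in response numbered 1 and 0 for PC-3 and LNCaP at 12 h and 24 h (3.57% and 1.23%), 4 and 1 for PC-3 and CT1258 (9.33% and 4.79%) and 5 and 1 for LNCaP and CT1258 (12.8% and 3.44%). A minimum log2 change of 1 left 5 and 3 in PC-3 (14% and 8.87%), and 12 at 24 h (9.87%) and 2 between times (0.445%) in CT1258. The cause was not tested.

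With the replicate number as a block, 5 members were called at 0.001 in PC-3 at 24 h (11.4% of all genes), 0, 0 and 0 in LNCaP (0% each), and 32, 24 and 12 in CT1258 (41.6%, 31% and 1.34%). At 0.05 the block left 2 and 0 lower in LNCaP against DMSO (1.44% and 0.0988%). Samples of 1 number correlated at -0.42 to 0.19 across genes, after the group means were subtracted. With so few samples per group, these values cannot show whether samples of 1 number were prepared together. The block was not fitted for PC-3 at 12 h because the columns numbered 1 and 2 could not be tied to single samples: both samples share 1 description.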
